A study of Mus musculus with 54 samples.

Results

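The lysosomal genes described here were 40 genes, chosen by symbol from the known work of their products, and all 40 were found among the 33280 gene symbols of the count tables. They comprised 11 proteases (Ctsa, Ctsb, Ctsc, Ctsd, Ctsf, Ctsh, Ctsl, Ctss, Ctsz, Lgmn and Tpp1), 12 glycosidases (Hexa, Glb1, Gla, Gaa, Gusb, Idua, Man2b1, Manba, Naglu, Neu1, Fuca1 and Galc), 5 sulfatases (Ids, Sgsh, Arsa, Arsb and Galns), 7 genes of lipid handling (Lipa, Ppt1, Smpd1, Asah1, Psap, Npc1 and Npc2), 4 membrane proteins (Lamp1, Lamp2, Laptm5 and Cd68) and Grn, which encodes progranulin. They were measured by bulk RNA sequencing in 54 libraries of 18 groups, with 3 mice per group and 24 mice in all. Each library held microglia (MG), the macrophages of the brain tissue, or subdural CNS-associated macrophages (sdCAMs), the macrophages around vessels and in the leptomeninges, sorted from 1 mouse brain without its choroid plexuses.

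Wild-type (WT) mice and Ccr2-/- mice, which lack the chemokine receptor that monocytes use to leave the bone marrow, each gave 3 groups per cell type. One group was left without treatment and was injected with PBS, another had received the vehicle of the drug and was injected with lipopolysaccharide (LPS), and another had received BLZ945, which blocks the CSF1 receptor and so depletes macrophages, and was injected with LPS. Injections were given 8 weeks after treatment and cells were taken 12 h later, so LPS was compared with PBS in mice that differed in vehicle treatment as well. The reporter mice (Ccr2CreERT2/CreERT2:R26tdT/tdT) had all received BLZ945 and then tamoxifen, which marks with tdTomato (tdT) cells that have Ccr2 switched on at that time, so that MG, tdT+ cells and tdT- cells each gave a group after LPS and a group after PBS. The reporter mice carried the CreERT2 insertion on both Ccr2 alleles, a cell that did not recombine also counts as tdT-, and the labels used gave no age. Below, "at rest" means 12 h after PBS.

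Lysosomes are acidic vesicles in which macrophages break down what they engulf. Cathepsins and legumain break down proteins, glycosidases and sulfatases take sugars and sulfate groups off glycolipids and glycosaminoglycans, and the lipid group splits or moves ceramide, sphingomyelin and cholesterol esters. LAMP proteins line the vesicle membrane. Inherited loss of many of these enzymes gives lysosomal storage disease, in which undigested material fills macrophages and neurons.

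Levels are given in counts per 1000000 counts (CPM) after scaling of all 54 libraries together, differences are on the log2 scale, given in brackets as the difference ± its standard error (SE), and a gene passed a test at an adjusted p below 0.05 (edgeR quasi-likelihood test, Benjamini-Hochberg adjustment over all genes tested). Libraries held between 1705930 and 11330781 counts. In the 3 WT sdCAM libraries after vehicle and LPS, the acute-phase gene Saa3 alone took 23.0 to 35.8% of the counts. The labels give the reporter libraries another batch number than the WT and Ccr2-/- libraries, which share one, so levels are compared within the batch. In bulk samples, fewer cells of a type and less RNA per cell cannot be told apart.

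Several libraries were set apart from the rest of their group. The level of 8 MG marker genes in the tdT+ sdCAM library of mouse 5 after LPS reached 81.3% of the MG level from that mouse, against 3.71 and 9.77% in the other tdT+ libraries after LPS. In the untreated WT sdCAMs it was 17.5, 23.6 and 37.9%, and in the untreated and the vehicle-treated Ccr2-/- sdCAMs 7.23 to 12.0%. The columns of mouse 1 tdT- and mouse 7 tdT+ after LPS carried index numbers that conflict with the labels, and 2 of 24 mice held libraries of both sexes as named and 0 of 24 once these columns were exchanged. As named, Saa3 took 14.5, 28.3 and 17.8% of the counts in tdT- and 2.14, 0.68 and 2.74% in tdT+ sdCAMs after LPS (mice 1, 5 and 7). An exchange would put 14.5% among the tdT+ and 2.74% among the tdT- libraries. The assignment was not settled, so results on the reporter sdCAMs after LPS are given also with the columns exchanged and with both left out. Ccr2 itself was at 17.1 to 51.1 CPM in untreated WT sdCAMs and at 2.33 to 5.21 CPM in those of Ccr2-/- mice. After vehicle and LPS it was at 0 to 0.756 CPM in WT and 3.06 to 5.48 CPM in Ccr2-/- sdCAMs, so there the order was turned, with each Ccr2-/- library above each WT library, and Ccr2 did not mark the genotypes as labelled. Untreated MG overlapped, with Ccr2 at 3.08 to 8.54 CPM in WT and 4.71 to 6.48 CPM in Ccr2-/- mice. Ccr2 transcript therefore checks the labels of the untreated sdCAM libraries only. The labels also mark 6 WT sdCAM libraries for a correction of immediate early genes, namely all 3 after vehicle and LPS, untreated mice 9 and 14 and BLZ945 mouse 12, and leave untreated mouse 15 without the mark.

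After LPS the lysosomal genes were lower on balance in every population. The lysosomal score, the mean of log2(CPM + 1) over the 40 genes, was 9.19 in untreated Ccr2-/- sdCAMs and 8.15 after LPS, and in MG of the same genotype it was 8.89 and 8.50. In WT mice the score was 8.28 and 7.29 in sdCAMs and 8.49 and 8.09 in MG. In reporter mice it was 9.04 after PBS and 7.07 after LPS in tdT- sdCAMs, 8.88 and 7.70 in tdT+ sdCAMs, and 8.99 and 8.21 in MG. The 3 libraries after LPS lay below the 3 libraries after PBS in each of the 7 populations.

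**Figure D1:**
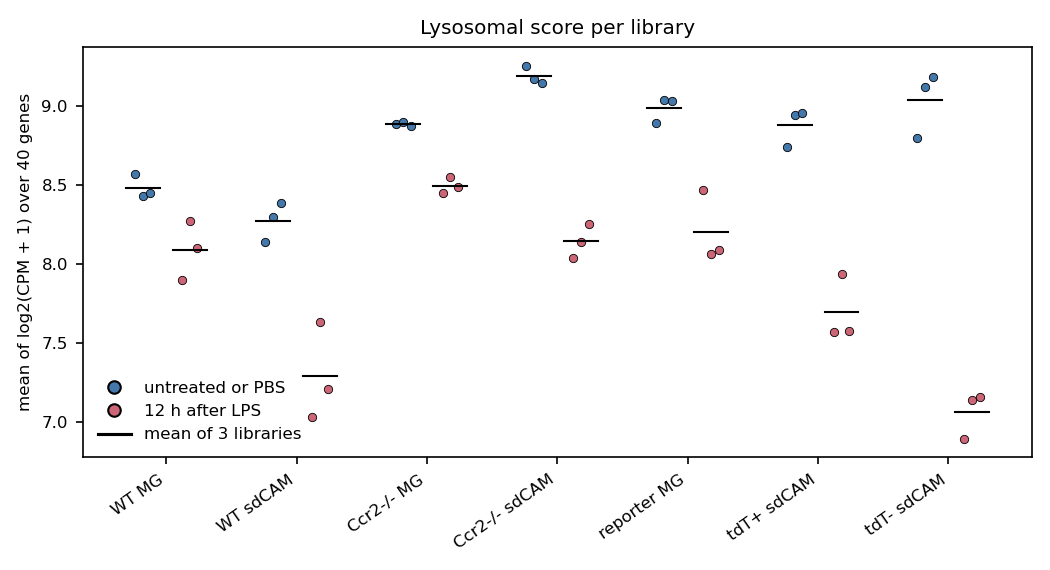
Lysosomal score, the mean of log2(CPM + 1) over 40 genes, on the vertical axis for each library (points) of each population and treatment, with the mean of 3 libraries as a line. In each of the 7 populations the libraries after LPS lie below those at rest, from 9.04 to 7.07 on average in tdT- sdCAMs and from 8.89 to 8.50 in Ccr2-/- MG.

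The summed level of the 40 genes after LPS was 57.9% of its level at rest in Ccr2-/- sdCAMs and 83.9% in Ccr2-/- MG. It was 57.2% in WT sdCAMs, 76.7% in WT MG, 41.2% in tdT+ sdCAMs, 26.9% in tdT- sdCAMs and 54.2% in reporter MG. The score weighs each gene alike, whereas the sum follows the most abundant cathepsins.

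Gene by gene, Ccr2-/- sdCAMs gave 5 higher and 29 lower genes of 40 after LPS, where 15.8% of all genes tested were higher and 13.1% were lower. The median log2 difference of the 40 genes was -1.07, beside -0.05 for all genes. Ccr2-/- MG gave 8 higher and 23 lower genes, with backgrounds of 19.4% and 15.5% and a median of -0.53 beside 0.00. WT MG gave 6 higher and 20 lower genes, with backgrounds of 16.7% and 14.2% and a median of -0.50 beside 0.02. Many MG differences were small, since a log2 difference over 1 was kept by 5 higher and 8 lower genes in WT MG (backgrounds of 9.08% and 7.65%) and by 3 and 7 in Ccr2-/- MG (backgrounds of 10.5% and 8.89%). In tdT- sdCAMs 0 were higher and 30 lower (backgrounds of 14.7% and 12.4%, medians of -2.02 and 0.04). In tdT+ sdCAMs 2 were higher and 21 lower (backgrounds of 7.63% and 6%, medians of -1.16 and 0.02). With the 2 conflicting columns exchanged the number passing in either direction went from 30 to 26 in tdT- and from 23 to 16 in tdT+ sdCAMs, and with both left out it was 29 and 19.

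WT sdCAMs and reporter MG gave few calls. In WT sdCAMs 0 genes were higher and 7 were lower (Ctsf, Hexa, Man2b1, Ids, Sgsh, Arsb and Lipa), with backgrounds of 3.7% and 2.62%, although the median log2 difference was -0.88 beside -0.08 and 19 genes had an unadjusted p below 0.05. DESeq2 gave 2 higher and 12 lower genes there. Leaving out 1 library gave 0 to 3 calls, with 0 without LPS mouse 6, 1 without LPS mouse 1, 2 without LPS mouse 4 or untreated mouse 14, and 3 without untreated mouse 9 or 15. Over the 13 alternatives run there, Lipa passed in 12, Arsb in 9, Hexa, Ctsf and Sgsh in 8 each, Ids in 7 and Man2b1 in 6. The count was 11 (2 higher and 9 lower) with the mark for immediate early genes as a covariate. Leaving out mouse 15 left only marked libraries in the groups compared, with 3 calls, 1 higher and 2 lower. The unmarked libraries of BLZ945 mice 8 and 11 stayed in that fit. In reporter MG 1 gene, Arsb, was lower and 0 were higher (backgrounds of 0.423% and 0.662%), 19 genes had an unadjusted p below 0.05, DESeq2 gave 12 lower genes, and the median was -0.86 beside 0.03. Leaving out PBS mouse 175 gave 3 genes and leaving out any of the other 5 reporter MG libraries gave 0.

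The scaling set the level of all genes in the libraries rich in Saa3. With library totals in place of scaling factors the median of all genes after LPS went to -1.55 in WT sdCAMs, -0.75 in tdT- sdCAMs, -0.20 in Ccr2-/- sdCAMs, 0.28 in tdT+ sdCAMs and 0.29 in reporter MG. The distance of the 40 genes from that median hardly moved, from -0.81 to -0.75 in WT sdCAMs and from -2.06 to -2.05 in tdT- sdCAMs. Between 30 and 35 of the 40 genes lay below the median of all genes in each population under either scaling.

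**Figure D2:**
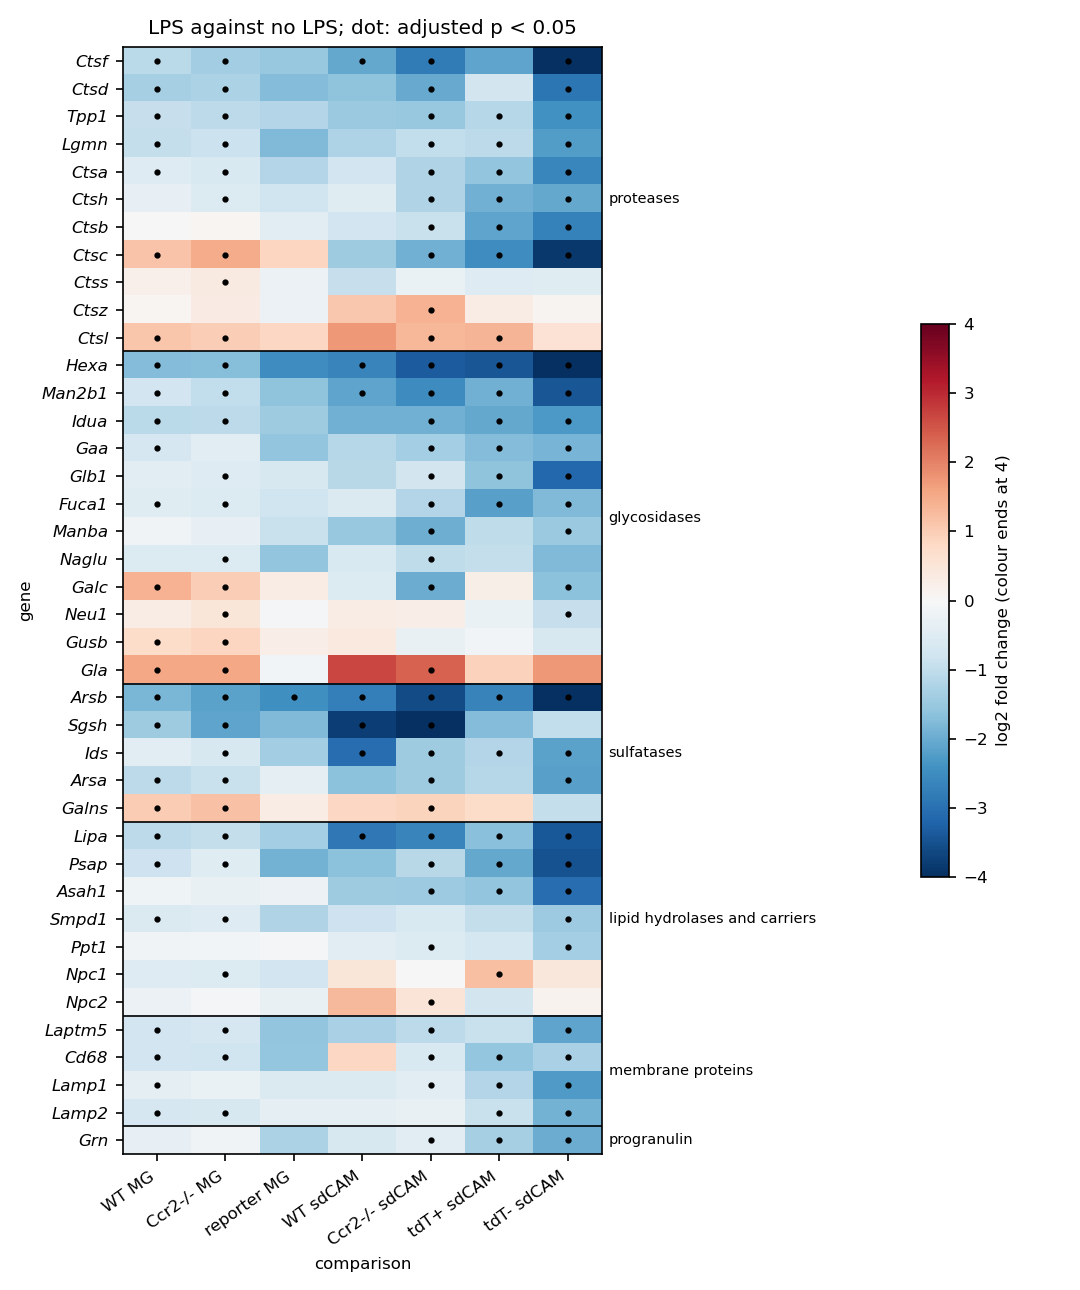
Log2 difference between LPS and rest for each of the 40 genes (rows, grouped by role) in the 7 populations (columns), as colour from blue (lower) to red (higher), with a dot where the test passed. Hexa and Arsb are lower throughout, whereas Ctsc and Galc are higher in WT and Ccr2-/- MG and lower in Ccr2-/- sdCAMs.

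All 40 genes passed after LPS in at least 1 of 7 populations, 29 of them only downward, 7 only upward and 4 (Ctsc, Galc, Neu1 and Npc1) in both directions. Of the 9667 genes tested in all 7 populations, 68% passed in at least 1, 28% only downward, 34.8% only upward and 5.16% in both directions, so passing somewhere was common and the share that went only downward was the larger among the 40. The populations within a batch were fitted with their own resting controls, apart from tdT+ and tdT- sdCAMs, which shared 1 fit. Arsb passed as lower in all 7 (0.114% of the genes tested in all), and Hexa, Man2b1 and Lipa in every population other than reporter MG (0.745% were lower in at least 6). Of the 152 calls among the 40 genes after LPS, 14 did not pass in at least as many alternatives as they passed in. These were Grn and Npc2 in Ccr2-/- sdCAMs, Ctss, Naglu and Smpd1 in Ccr2-/- MG, Fuca1 and Lamp1 in WT MG, Man2b1 in WT sdCAMs, Cd68 and Neu1 in tdT- sdCAMs, and Ids, Lgmn, Lamp2 and Npc1 in tdT+ sdCAMs.

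Among the glycosidases, 9 of 12 fell in Ccr2-/- sdCAMs, 6 in Ccr2-/- MG, 5 in WT MG, 2 in WT sdCAMs, 9 in tdT- and 6 in tdT+ sdCAMs. Hexa, the alpha subunit of the beta-hexosaminidase that degrades GM2 ganglioside, stood at 2088, 2448 and 1912 CPM in the 3 untreated Ccr2-/- sdCAM libraries and at 208, 220.0 and 222 CPM after LPS. The groups did not overlap, and the log2 difference was -3.31 ± 0.16, adjusted p = 2.68e-08. In Ccr2-/- mice that had received BLZ945 before LPS, sdCAMs held Hexa at 238, 289.7 and 311 CPM, again below every untreated library.

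In MG, Hexa was lower after LPS as well. Ccr2-/- MG held it at 1251, 1327 and 1314 CPM at rest and at 405, 390.5 and 379.8 CPM after LPS (-1.71 ± 0.11, adjusted p = 1.66e-07). WT MG held 936, 807 and 827 and then 203, 328 and 231 CPM (-1.75 ± 0.18, adjusted p = 3.35e-05). The WT sdCAM libraries, at 866, 714 and 901 CPM at rest, were at 71, 205 and 90.7 CPM after LPS (-2.63 ± 0.61, adjusted p = 0.031), with the library of mouse 4 the highest of the 3. In tdT- sdCAMs the level went from 1876, 2252 and 2058 to 114, 84.1 and 109 CPM (-4.34 ± 0.31, adjusted p = 1.1e-06). In tdT+ sdCAMs it went from 1766, 1874 and 1735 to 162, 191 and 151 CPM (-3.41 ± 0.30, adjusted p = 1.41e-05). The tdT+ library of mouse 5, rich in MG markers, did not stand out for Hexa.

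Man2b1, the lysosomal alpha-mannosidase, fell from 1417, 1371 and 1179 CPM to 179.6, 252 and 267 CPM in Ccr2-/- sdCAMs (-2.51 ± 0.19, adjusted p = 1.16e-06). Its MG levels, 1165, 1283 and 1147 CPM at rest and 588, 681 and 534 CPM after LPS in Ccr2-/- mice, were separated by less. Glb1, the beta-galactosidase, was measured at 168, 129 and 142 and 66.5, 83.8 and 112 CPM in Ccr2-/- sdCAMs, and both groups were ordered without overlap. In tdT- sdCAMs Glb1 fell from 140.5, 176 and 217 to 19.6, 23.3 and 16.9 CPM (-3.15 ± 0.32, adjusted p = 8.04e-06). Fuca1, the alpha-fucosidase, fell in tdT+ sdCAMs from 293, 315 and 371 to 60.9, 92.3 and 65.4 CPM (-2.16 ± 0.31, adjusted p = 0.000367), and in Ccr2-/- sdCAMs it stood at 274, 294 and 255 and then at 127, 113 and 125 CPM.

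A few glycosidases rose. Gla, the alpha-galactosidase A that is missing in Fabry disease, rose in Ccr2-/- sdCAMs from 16, 12.6 and 7.02 to 61.8, 54.5 and 67.5 CPM (2.36 ± 0.29, adjusted p = 6.85e-05). Gusb, the beta-glucuronidase, rose in Ccr2-/- MG from 405, 344 and 347 to 680.0, 595 and 667 CPM (0.85 ± 0.13, adjusted p = 0.000187) and was at 515, 541 and 515 and 387, 417 and 465 CPM in the sdCAMs of those mice, where it did not pass. Galc, the galactosylceramidase that breaks down myelin lipids, rose in Ccr2-/- MG from 52.4, 63.8 and 60.6 to 105, 129.6 and 109.8 CPM (0.98 ± 0.15, adjusted p = 0.000162) and in WT MG from 45, 49 and 39.7 to 87.9, 162 and 100.01 CPM (1.40 ± 0.23, adjusted p = 0.000853). In Ccr2-/- sdCAMs Galc went the other way, with 313, 206 and 249 CPM at rest and 75.5, 57.6 and 59.9 CPM after LPS.

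Of the 5 sulfatases, 4 fell and 1 rose in both Ccr2-/- sdCAMs and Ccr2-/- MG. Arsb, which removes sulfate from dermatan and chondroitin sulfate, was at 525, 492 and 464 CPM in untreated Ccr2-/- MG and at 105, 128 and 97.9 CPM after LPS (-2.14 ± 0.15, adjusted p = 1.82e-07). WT MG showed the same order, 301, 378 and 351 against 79.0, 105 and 101 CPM (-1.84 ± 0.16, adjusted p = 1.02e-05), and so did reporter MG, 389.9, 258 and 425 against 62.3, 66 and 71.8 CPM (-2.45 ± 0.33, adjusted p = 0.0268). WT sdCAMs went from 107, 125 and 209.8 to 23.0, 16.3 and 20.3 CPM (-2.72 ± 0.51, adjusted p = 0.015). No library after LPS reached the lowest library at rest in any of these populations.

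Sgsh, the heparan N-sulfatase, was uneven among untreated WT sdCAMs, at 399, 341 and 48.2 CPM for mice 9, 14 and 15, and at 23.0, 17.5 and 13.5 CPM after LPS. In Ccr2-/- sdCAMs it was at 93.3, 57 and 76.1 and then at 4.04, 2.63 and 5.52 CPM, so that both genotypes ended low. Galns, which removes sulfate from keratan sulfate, rose in Ccr2-/- sdCAMs from 32.5, 32.6 and 31.2 to 42.4, 59.5 and 78.2 CPM (0.90 ± 0.25, adjusted p = 0.016) and in WT MG from 20.7, 14.1 and 15.5 to 29.9, 35.5 and 36.8 CPM (1.03 ± 0.20, adjusted p = 0.0024). Arsa, which acts on sulfatides, passed as lower in 4 of 7 populations and Ids, the iduronate sulfatase, in 5 of 7.

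The proteases were split. In Ccr2-/- sdCAMs 8 of 11 fell and 2 rose, in Ccr2-/- MG 6 fell and 3 rose, in WT MG 5 fell and 2 rose, and in tdT- sdCAMs 8 fell. Ctsd, the aspartic protease cathepsin D, stood at 3749, 4167 and 4096 CPM in untreated Ccr2-/- sdCAMs and at 851, 986 and 1164 CPM after LPS (-2.004 ± 0.14, adjusted p = 5.96e-07). MG held more of it, 10348, 11156 and 10700.0 CPM at rest and 4589.8, 4809 and 3785 CPM after LPS in Ccr2-/- mice (-1.27 ± 0.13, adjusted p = 6.12e-06). In tdT+ sdCAMs after LPS the level was 582, 3381 and 625 CPM for mice 1, 5 and 7, so the library rich in MG markers lay above the 2768, 2488 and 2458 CPM of the PBS libraries and the others lay below them.

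Lgmn, the asparaginyl endopeptidase legumain that trims other cathepsins, was at 3162, 2874 and 3228 and then 1446, 1556 and 1678 CPM in Ccr2-/- sdCAMs and at 6091, 5693 and 5546 and then 3079, 3508 and 2746 CPM in the MG. Both pairs of groups were without overlap. Tpp1, the tripeptidyl peptidase lost in a childhood form of neuronal ceroid lipofuscinosis, fell in Ccr2-/- MG from 610.3, 618 and 669 to 289, 319 and 302 CPM (-1.04 ± 0.12, adjusted p = 1.47e-05). Ctsf, cathepsin F, fell in WT sdCAMs from 86.5, 122 and 154 to 25.7, 23.3 and 29.2 CPM (-2.06 ± 0.40, adjusted p = 0.017), and in tdT- sdCAMs it went from 204, 266 and 222 to 2.25, 17.5 and 8.01 CPM.

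Ctsl, cathepsin L, rose in Ccr2-/- sdCAMs from 893, 910.2 and 893 to 1867, 2328 and 2595 CPM (1.33 ± 0.21, adjusted p = 0.00036), in Ccr2-/- MG from 1379.7, 1477 and 1474 to 2616, 2909.7 and 3009 CPM (1.00 ± 0.18, adjusted p = 0.000618) and in WT MG from 926, 750.4 and 868 to 2481, 1456 and 1486 CPM (1.10 ± 0.19, adjusted p = 0.00118). WT sdCAMs held 591.3, 483 and 604 and then 1735, 1628 and 1659 CPM, without overlap, but the difference did not pass (adjusted p = 0.0855). In tdT+ sdCAMs, at 389.5, 400.3 and 428 CPM after PBS and 578, 1789 and 724 CPM after LPS, the test passed (1.35 ± 0.39, adjusted p = 0.0306) but did not without mouse 5 (log2 difference 0.67, adjusted p = 0.135), without any 1 of the PBS libraries (adjusted p from 0.0868 to 0.104) or with the columns exchanged (adjusted p = 0.0923). Ctsz, the carboxypeptidase cathepsin X, rose in Ccr2-/- sdCAMs from 1307, 1447 and 1501 to 3564, 3502 and 4005 CPM (1.38 ± 0.13, adjusted p = 5.71e-06), and its MG libraries held 2151, 2053 and 2023 and 2922, 2120.1 and 2746 CPM, which did not pass.

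The papain-like cathepsins B, C and S gave other patterns. Ctsb stayed at 5273, 5194 and 5063 CPM and 5724, 5186 and 5221 CPM in Ccr2-/- MG at rest and after LPS, which overlap, and in the sdCAMs it was at 14708, 14293 and 15610.5 and then 7287, 7788 and 9151 CPM, which do not. Ctsb fell in tdT+ sdCAMs from 12610.1, 15591 and 11968 to 2969.8, 3137 and 3115 CPM (-2.12 ± 0.32, adjusted p = 0.000544). Ctss, the cathepsin of antigen presentation, was at 4777, 5497 and 4922 and 3818, 4515 and 4245 CPM in Ccr2-/- sdCAMs and did not pass there, and among untreated WT sdCAMs mouse 15 stood apart (12803, 14074 and 4079 CPM for mice 9, 14 and 15). In Ccr2-/- MG Ctss passed as higher, with 10513, 9558 and 10384 CPM and then 12181, 13306 and 12649 CPM, but in only 3 of 12 alternatives (adjusted p up to 0.139).

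Ctsc, the dipeptidyl peptidase that activates granule serine proteases, moved in opposite directions in the 2 cell types. It fell in Ccr2-/- sdCAMs from 8191, 7476 and 7666 to 2217, 1719.7 and 2255 CPM (-1.92 ± 0.14, adjusted p = 6.34e-07) and rose in Ccr2-/- MG from 1346, 1487 and 1288 to 4047, 2967 and 4469.6 CPM (1.499 ± 0.17, adjusted p = 1.78e-05). The cell types were far apart at rest and overlapped in no library, and after LPS the MG were the higher of the pair. WT MG rose too, from 998, 1046 and 1033 to 2708, 1841 and 2263 CPM (1.15 ± 0.15, adjusted p = 0.000203), whereas WT sdCAMs stood at 1944, 1727 and 2404 and then 530.4, 734 and 801 CPM, a difference that did not pass (adjusted p = 0.164). Among tdT+ sdCAMs after LPS the level was 570.4, 2096 and 545 CPM for mice 1, 5 and 7, with the library rich in MG markers again the highest.

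**Figure D3:**
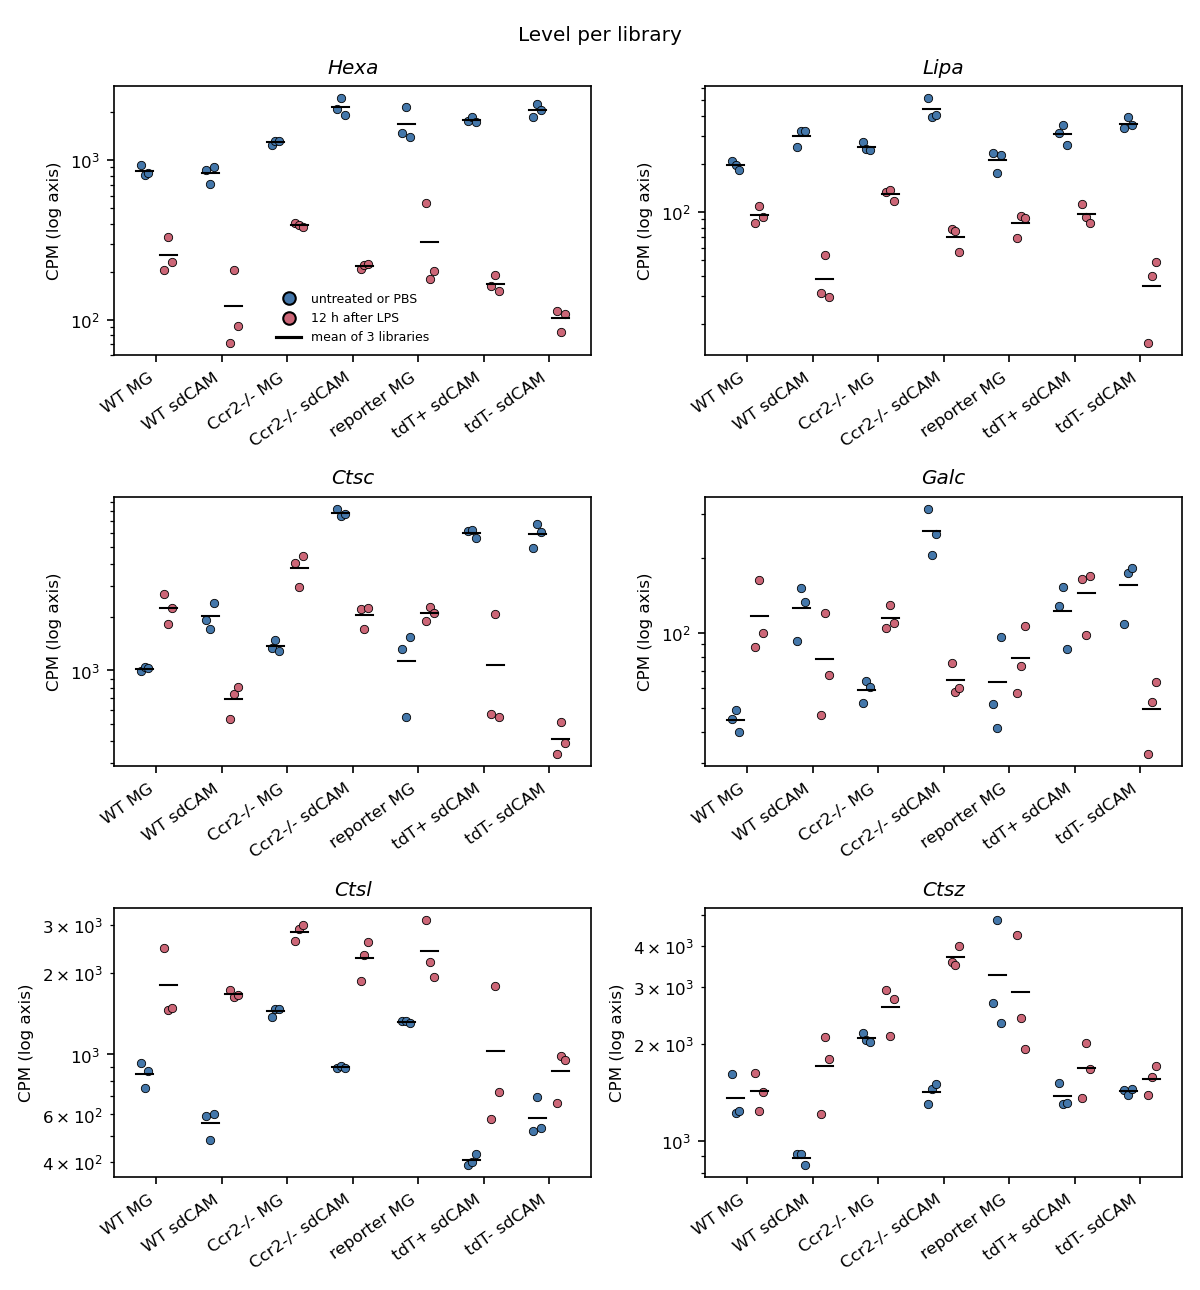
Level in CPM (log axis) of 6 of the genes in each library (points) of each population at rest and after LPS, with the mean of 3 libraries as a line. The Hexa libraries after LPS lie under those at rest in every population, and Ctsc falls in Ccr2-/- sdCAMs while it rises in Ccr2-/- MG.

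In the lipid group, 4 of 7 genes fell and 1 rose in Ccr2-/- sdCAMs, and 4 fell in Ccr2-/- MG. Lipa, the acid lipase that splits cholesterol esters, fell in WT sdCAMs from 257, 322 and 320.2 to 31.4, 53.6 and 29.5 CPM (-2.85 ± 0.45, adjusted p = 0.00698) and in WT MG from 210.3, 198 and 184 to 85.2, 109 and 92.6 CPM (-1.04 ± 0.14, adjusted p = 0.000293). In Ccr2-/- sdCAMs its libraries held 516, 394 and 408 and then 78.2, 75.9 and 56.4 CPM. All 3 pairs of groups were separated.

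Psap, the precursor of the saposins that present sphingolipids to their hydrolases, fell in tdT- sdCAMs from 2242, 2649 and 3248 to 209, 286 and 234 CPM (-3.48 ± 0.33, adjusted p = 4.77e-06) and in tdT+ sdCAMs from 2410.3, 3096 and 2682 to 568, 846 and 570.5 CPM (-2.04 ± 0.31, adjusted p = 0.000667). Asah1, the acid ceramidase, fell in tdT- sdCAMs from 1672, 2019 and 1909 to 181, 329 and 174 CPM (-3.03 ± 0.34, adjusted p = 1.45e-05), while Ccr2-/- MG held 1302, 1191 and 1269.6 and 963, 1053 and 1023 CPM and did not pass. The cholesterol exporters gave calls in both directions. Npc2, the soluble partner that carries cholesterol out of the lysosome, passed as higher in Ccr2-/- sdCAMs, at 838, 839.8 and 882 and then 1149, 1187 and 1332 CPM, in 6 of 12 alternatives (adjusted p up to 0.0873). Its membrane partner Npc1 passed as higher in tdT+ sdCAMs, at 55.6, 58.9 and 88.8 and then 161, 99.8 and 205 CPM (1.20 ± 0.38, adjusted p = 0.049), which did not pass with the 2 conflicting columns exchanged (adjusted p = 0.386) and passed in 6 of 14 alternatives. In Ccr2-/- MG Npc1 passed as lower, at 135, 148 and 126 and then 87.5, 99.9 and 88.5 CPM.

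Of the 4 membrane proteins, 3 fell in Ccr2-/- sdCAMs, 3 in Ccr2-/- MG, 4 in WT MG, 4 in tdT- sdCAMs and 3 in tdT+ sdCAMs, while 0 passed in WT sdCAMs. Laptm5, a membrane protein of blood-cell lysosomes, fell in WT MG from 4192, 3664 and 4007 to 2051, 2468 and 2429.7 CPM (-0.76 ± 0.12, adjusted p = 0.000601), and in Ccr2-/- sdCAMs its level was 2418, 2822 and 2550.5 and then 1076, 1390.5 and 1295 CPM. Lamp1, the main lysosomal membrane glycoprotein, stood at 2773, 2650.0 and 2670.4 and 1836, 2009 and 2041 CPM in Ccr2-/- sdCAMs, a log2 difference of -0.46, and at 2482, 2838 and 2755 and 646, 528 and 527 CPM in tdT- sdCAMs, a log2 difference of -2.25. Both ranges were separated.

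Cd68, the macrophage marker macrosialin, was at 1708, 1900.2 and 1870.2 and 1102, 1107 and 1387 CPM in Ccr2-/- sdCAMs and at 1245, 1138 and 1289 and 680.2, 703 and 709 CPM in their MG. In WT sdCAMs the levels were 716, 783 and 715 CPM at rest and 609, 1998 and 1016 CPM after LPS, which overlap, and mouse 4 was the highest after LPS. Grn was at 3287, 3466 and 3101 and 2047, 2691 and 2546 CPM in Ccr2-/- sdCAMs, where it passed as lower but in only 5 of 12 alternatives (adjusted p up to 0.133). In Ccr2-/- MG it was at 2457, 2578 and 2604 and 2013, 2363 and 2396 CPM and did not pass.

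The difference in the LPS response between sdCAMs and MG of the same mice was tested as an interaction. In Ccr2-/- mice 15 of 40 genes went lower in sdCAMs relative to MG and 1, Ctsz, went higher, with backgrounds of 4.64% and 3.5%. The median difference of the 40 genes was -0.56 beside -0.07 for all genes. The interaction was -3.38 ± 0.24 for Ctsc (adjusted p = 6.8e-08), -2.94 ± 0.30 for Galc (adjusted p = 3e-06), -1.57 ± 0.18 for Hexa (adjusted p = 1e-05) and 1.07 ± 0.19 for Ctsz (adjusted p = 0.000926). The other 12 genes lower in sdCAMs were Asah1, Lipa, Ctsb, Ctsd, Ctsf, Ctss, Ctsa, Man2b1, Gaa, Manba, Gusb and Arsb. Of 18 alternatives, Ctsd passed in 8, Gaa in 6 and Ctsa and Ctss in 5 each, and the rest of the 12 in at least 15. For Gusb this came with a rise in MG, and for Arsb and Ctsd with a fall in both cell types.

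In WT mice 3 genes, Ctsc, Galc and Lipa, went lower in sdCAMs relative to MG and 0 went higher (backgrounds of 0.891% and 0.434%), and 10 genes had an unadjusted p below 0.05. DESeq2 gave 3 higher and 4 lower. In tdT- sdCAMs against reporter MG 7 genes went lower and 0 higher (backgrounds of 1.92% and 2.71%), namely Ctsb, Ctsc, Hexa, Glb1, Lipa, Asah1 and Lamp1. In tdT+ sdCAMs 1 gene, Ctsc, went lower and 0 higher (backgrounds of 0.661% and 0.376%). With the 2 conflicting columns exchanged these counts were 1 in tdT- and 0 in tdT+, and with both left out 7 and 0. The WT counts were 0 with the mouse as a block, and leaving out 1 library moved them to between 0 and 3, with 0 without MG of untreated mouse 9, 14 or 15 and 1 without MG of LPS mouse 1, 4 or 6 or sdCAMs of LPS mouse 6 or untreated mouse 14.

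**Figure D4:**
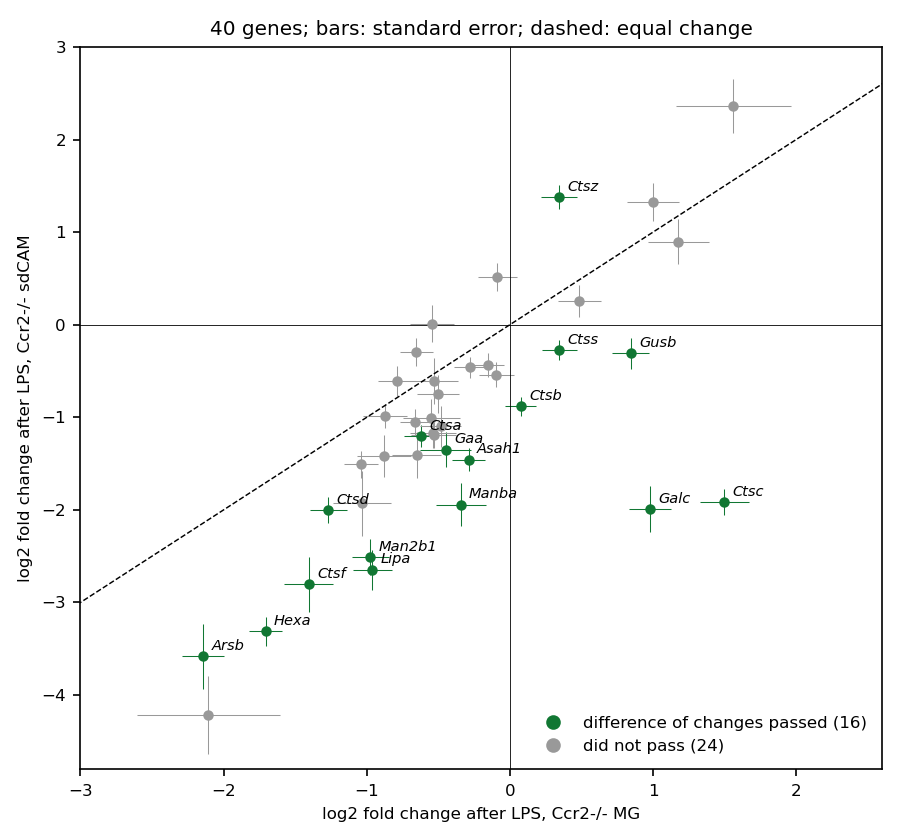
Log2 difference between LPS and rest in MG (horizontal axis) and in sdCAMs (vertical axis) of Ccr2-/- mice for the 40 genes (points), with bars for the SE, a dashed line of equal change and green for the 16 genes whose difference of changes passed. Genes below the line, such as Ctsc and Galc, moved lower in sdCAMs than in MG, and Ctsz lies above it.

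No difference in the LPS response between genotypes passed for any of the 40 genes. In MG 0 of 40 passed (0 of 12423 genes overall), 0 of the 40 had an unadjusted p below 0.05, and DESeq2 gave 0. In sdCAMs 0 of 40 passed (0 of 13258 genes overall), 3 had an unadjusted p below 0.05, and DESeq2 gave 0. The number of calls in each genotype, 7 against 34 in sdCAMs, therefore does not by itself show a difference between WT and Ccr2-/- mice.

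BLZ945 treatment 8 weeks earlier gave no call among the 40 genes after LPS with all libraries in the fit. In WT sdCAMs, WT MG, Ccr2-/- sdCAMs and Ccr2-/- MG 0 of 40 passed (backgrounds in either direction of 0%, 0.0763%, 0% and 0.0173%, that of WT MG made up of 0.0594% higher and 0.017% lower). At an unadjusted p below 0.05 there were 1, 10, 3 and 6 genes, and DESeq2 gave 0, 1, 0 and 0. In WT MG the median of the 40 genes was 0.25 with BLZ945 against vehicle, beside -0.01 for all genes, and 37 of 40 lay above the median of all genes. The scores of the BLZ945 and vehicle groups overlapped in all 4 populations. In WT sdCAMs the absence of calls rested on 1 library, that of BLZ945 mouse 12, in which Saa3 took 21.0% of the counts against 1.79 and 2.39% in the other libraries of its group. Without it 788 genes passed in place of 0, and 1 of the 40 (higher with BLZ945) in place of 0. That library was also the only one of its group with the mark for immediate early genes, which every vehicle library carried. In the fit without it, BLZ945 and the mark therefore cannot be told apart.

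After LPS, tdT+ sdCAMs held more of some lysosomal transcripts than tdT- sdCAMs. Of the 40 genes 7 were higher in tdT+ (Lgmn, Glb1, Galc, Lipa, Asah1, Psap and Laptm5) and 0 were lower, with backgrounds of 3.85% and 6.92%. Psap was at 568, 846 and 570.5 CPM in tdT+ and 209, 286 and 234 CPM in tdT- sdCAMs (1.44 ± 0.31, adjusted p = 0.00653), Galc at 164, 97.6 and 169 and 32.5, 52.8 and 63.2 CPM (1.54 ± 0.37, adjusted p = 0.0137), Asah1 at 489, 678 and 529 and 181, 329 and 174 CPM (1.31 ± 0.32, adjusted p = 0.0147) and Lipa at 112, 92.8 and 85.8 and 15.1, 39.6 and 48.5 CPM (1.498 ± 0.37, adjusted p = 0.0154). These groups did not overlap. The tdT+ library of mouse 5, rich in MG markers, was the highest tdT+ library for Psap, Asah1, Lgmn and Laptm5. Lgmn was at 1442 CPM there against 743 and 804 CPM, and Laptm5 at 1934 CPM against 941 and 989 CPM. For Galc it was the lowest, and for Glb1 and Lipa it lay between the others. The count was 0 with the conflicting columns exchanged and 3 with both left out, so it depends on how those columns are assigned. Leaving out 1 library at a time gave 5 to 10, a fit of these libraries alone gave 0, and DESeq2 gave 12 higher and 1 lower. After PBS 0 of 40 genes passed (background of 0.0236% in either direction), 0 had an unadjusted p below 0.05, DESeq2 gave 0, and the median was -0.18 beside 0.00.

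At rest the cell types differed most clearly in Ccr2-/- mice, where 17 genes were higher and 10 lower in sdCAMs than in MG (backgrounds of 12.5% and 9.9%, medians of 0.38 and 0). With a log2 difference over 1 as well, 5 were higher and 2 lower (backgrounds of 8.53% and 6.43%). By role 6 glycosidases were higher and 1 lower, whereas 3 proteases were higher and 6 lower. Ctsc was 7778 ± 370.4 CPM (SD, n = 3) in sdCAMs and 1373 ± 102 CPM in MG (2.50 ± 0.18, adjusted p = 3.46e-09), Ctsb 14871 ± 674 and 5177 ± 106 CPM (1.52 ± 0.11, adjusted p = 6.65e-09), Galc 2.11 ± 0.21 on the log2 scale and Asah1 0.92 ± 0.11. Higher in MG were Ctsd at 10735 ± 405 CPM against 4004 ± 224 CPM (-1.43 ± 0.14, adjusted p = 2.93e-07), Ctss (-1.01 ± 0.12, adjusted p = 3.22e-06), Laptm5 (-0.92 ± 0.12, adjusted p = 1.21e-05) and Lgmn (-0.91 ± 0.14, adjusted p = 0.0001).

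In the reporter mice Ctsc and Ctsb were also the genes higher in sdCAMs, at log2 differences of 2.38 and 1.33 for tdT+ and 2.37 and 1.47 for tdT-, with 5 genes lower for tdT+ and 3 for tdT- (backgrounds of 5.35% and 3.18%, and of 4.61% and 1.77%, higher and lower). Ctsd, Lgmn and Laptm5 were lower in sdCAMs for both. The reporter MG of PBS mouse 175 stood apart, with Ctsd at 14929, 24889 and 14224 CPM and Ids at 146, 0.517 and 175 CPM for mice 174, 175 and 177. The tdT- count of 5 was 2, 1 or 3 without the tdT- library of mouse 174, 175 or 177 and 3 without MG of mouse 175, and the tdT+ count of 7 was 4 without the tdT+ library of mouse 174.

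In WT mice 2 genes, Sgsh and Galc, were higher and 5 lower in sdCAMs (Ctsd, Ctsf, Naglu, Arsb and Laptm5; backgrounds of 12% and 5.46%). With the mouse as a block 2 were higher and 2 lower, and with median-of-ratios scaling 3 and 3. Leaving out untreated mouse 9 in either cell type gave 4, leaving out mouse 14 in either gave 3, and leaving out MG of mouse 15 gave 3. The median was -0.33 beside 0.03, on the other side of the all-gene median from Ccr2-/- mice, a difference that was not tested.

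**Figure D5:**
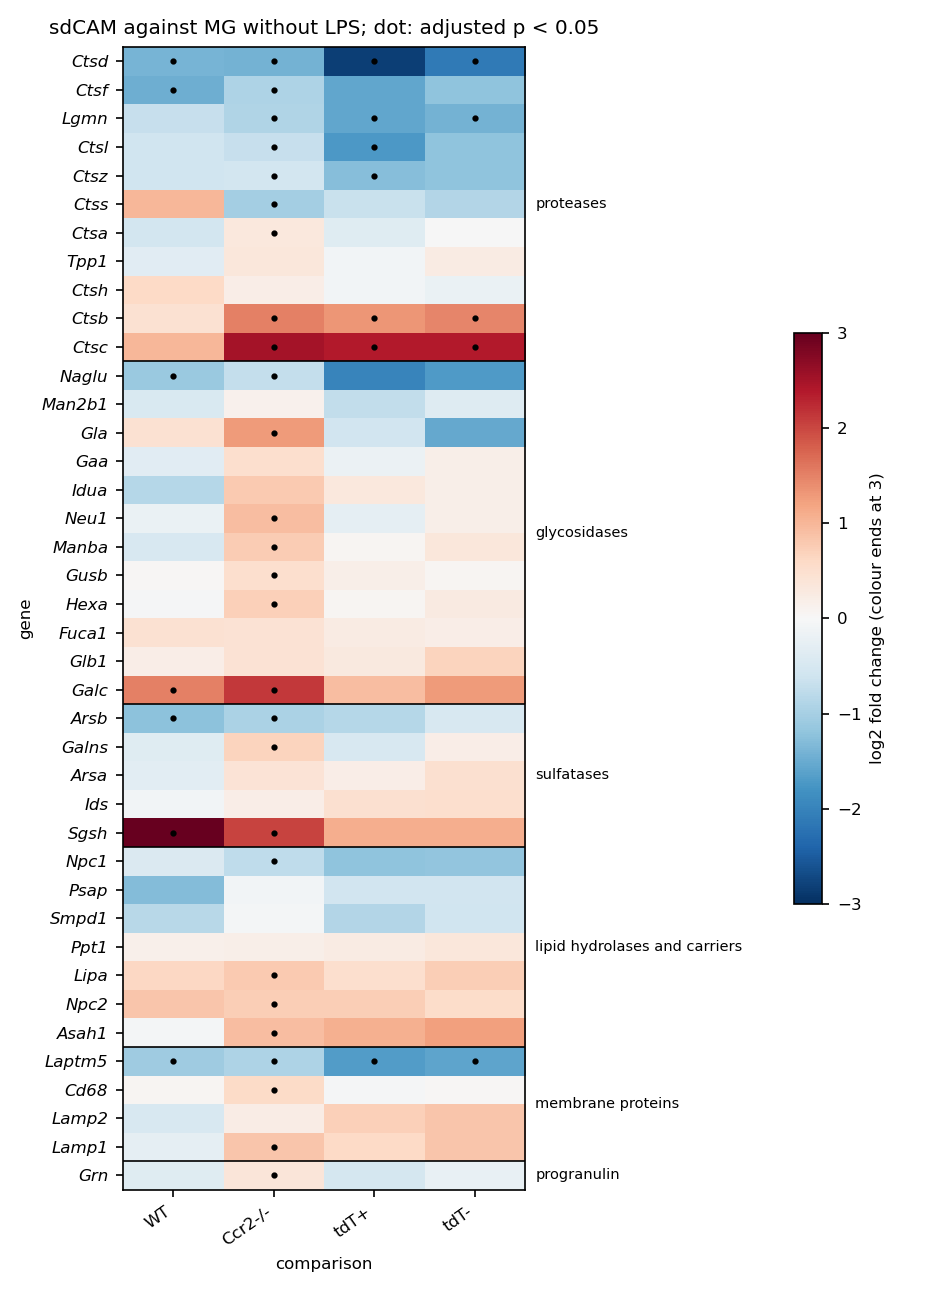
Log2 difference between sdCAMs and MG at rest for the 40 genes (rows) in WT and Ccr2-/- mice and for tdT+ and tdT- sdCAMs (columns), as colour from blue (lower in sdCAMs) to red (higher), with a dot where the test passed. Ctsc is higher in sdCAMs in each comparison, and Ctsd and Laptm5 are lower.

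Between genes, levels were compared per kilobase of exon. In untreated Ccr2-/- MG Ctss led with 7475.5 CPM per kb, followed by Ctsd at 4566 and Lgmn at 2487 CPM per kb, while Gla was the lowest at 1.49 CPM per kb. In untreated Ccr2-/- sdCAMs the order was Ctss with 3730.0, Ctsb with 2457.5, Ctsd with 1703 and Cd68 with 1453 CPM per kb. After LPS Ctsz moved up to the second place there, with 2561 CPM per kb behind Ctss with 3087, and Ctsd stood at 426 CPM per kb.

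Other lysosomal genes, a list of 67 that holds proton pump subunits, further hydrolases, membrane and delivery proteins and regulators, were compared with the 40. They were more evenly divided in Ccr2-/- sdCAMs, whereas in the reporter populations they too were lower on balance. In Ccr2-/- sdCAMs 14 of 65 tested were higher and 20 lower after LPS (backgrounds of 15.8% and 13.1%), with a median log2 difference of 0.00 where the 40 genes had -1.07. Among the 16 tested subunits of the V-ATPase, the pump that acidifies the lysosome, 7 were higher and 1 lower, and among 20 further hydrolases 3 were higher and 9 lower, against the same backgrounds. Acp5, the tartrate-resistant acid phosphatase, rose there (4.43 ± 0.29, adjusted p = 2.92e-07) and so did Atp6v0c, the ring subunit of the pump (1.01 ± 0.15, adjusted p = 0.000264). Hgsnat, the membrane acetyltransferase of heparan sulfate breakdown, fell (-2.81 ± 0.20, adjusted p = 6.34e-07), as did Atp6v0a1, a pump subunit of the membrane part (-3.26 ± 0.25, adjusted p = 1.22e-06).

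In Ccr2-/- MG 11 of 65 of these other genes were higher and 14 lower, where 19.4% and 15.5% of all genes were, so the share that rose was below that of all genes. Cd63, a tetraspanin of late endosomes, rose there (2.07 ± 0.15, adjusted p = 2.4e-07). WT MG gave 9 higher and 16 lower of 64, again a smaller share of rises than the 16.7% of all genes and a larger share of falls than the 14.2%, and Cd63 rose in them too (1.97 ± 0.13, adjusted p = 1.14e-06). In tdT- sdCAMs 4 of 65 were higher and 29 lower (backgrounds of 14.7% and 12.4%), and in tdT+ sdCAMs 4 and 13 (backgrounds of 7.63% and 6%). Their median log2 difference was -0.78 in tdT- and -0.55 in tdT+ sdCAMs, where the 40 genes had -2.02 and -1.16. In reporter MG 0 of 62 passed (backgrounds of 0.662% higher and 0.423% lower), 44 of 62 were lower in sign, and the median was -0.45 beside -0.86 for the 40 genes. The medians of the other list in WT MG, Ccr2-/- MG and WT sdCAMs were -0.13, -0.12 and -0.11. WT sdCAMs gave 1 higher and 3 lower of 63 (backgrounds of 3.7% and 2.62%).

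The inhibitors of the cathepsins were read beside their targets, and Cstb and Cst3 were singled out after their values were seen. Cstb, the cytosolic inhibitor cystatin B, was at 143, 151 and 126 CPM in untreated Ccr2-/- sdCAMs and at 872, 908 and 942 CPM after LPS (2.69 ± 0.15, adjusted p = 1.1e-07), and in tdT- sdCAMs at 189.8, 154 and 146 and 1850.0, 5745 and 2058 CPM (4.30 ± 0.49, adjusted p = 1.62e-05). MG held little of it, 61.5, 47.8 and 45.3 and 60.8, 54.6 and 63.3 CPM in Ccr2-/- mice, and did not pass. In tdT+ sdCAMs the levels were 183, 159 and 147 CPM after PBS and 164, 89.1 and 217 CPM after LPS (-0.06 ± 0.43, adjusted p = 0.952). The 1850.0 CPM in tdT- and the 217 CPM in tdT+ sdCAMs after LPS come from the conflicting columns. An exchange would swap these values between the groups, and Cstb is not reported with the columns exchanged. Cst3, the secreted cystatin C that MG make in quantity, fell in Ccr2-/- MG from 25886 to 15805 CPM on average (-0.69 ± 0.16, adjusted p = 0.00394), in WT MG from 12196 to 7566 CPM (-0.68 ± 0.10, adjusted p = 0.000542) and in Ccr2-/- sdCAMs from 6789 to 2803 CPM (-1.28 ± 0.15, adjusted p = 3.47e-05). WT sdCAMs went the other way, from 10665 CPM (7085 to 13335) at rest to 41262 CPM (24245 to 58763) after LPS, without overlap, but the difference did not pass (2.07 ± 1.41, adjusted p = 0.39). In tdT+ and tdT- sdCAMs and in reporter MG Cst3 did not pass.

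Markers of other cells differed in the sdCAM libraries after LPS as well. The summed level of 8 neutrophil markers ran from 104.5 to 132 CPM in untreated Ccr2-/- sdCAMs and from 331 to 384 CPM after LPS, with 2 and then 4 of the 8 above 3 counts in all 3 libraries. In tdT- sdCAMs it ran from 123 to 191 CPM after PBS and from 708 to 2489 CPM after LPS, and in WT sdCAMs from 109 to 232 CPM at rest and from 433 to 3408 CPM after LPS. Among these markers Retnlg and Ly6g were at 0 in the WT and Ccr2-/- sdCAMs both at rest and after vehicle and LPS, so the change lay in the other markers. The 4 markers of choroid plexus and ependyma summed to between 1.62 and 146 CPM in untreated WT sdCAMs and to between 14.1 and 1892 CPM (median 498) after vehicle and LPS, with 1 of the 4 above 3 counts in all 3 libraries of each group, and to at most 37.02 CPM in the other sdCAM populations at rest and after LPS. The 8 glia and neuron markers ran from 118 to 240 CPM in tdT- sdCAMs after PBS and from 338 to 482 CPM after LPS, while in the WT, Ccr2-/- and tdT+ sdCAMs the groups overlapped. The 8 monocyte markers were lower after LPS in tdT+ sdCAMs (34.8 to 99.0 CPM against 234 to 290) and tdT- sdCAMs (25.8 to 88.4 against 160 to 349). They were higher in Ccr2-/- sdCAMs (20.2 to 38.3 against 4.54 to 18.2) and overlapped in WT sdCAMs. The 5 T and NK cell markers were at 20.3 to 127 CPM in tdT+ sdCAMs after PBS and 0.31 to 11.0 CPM after LPS, and overlapped in tdT- sdCAMs. The 8 MG markers lay below every resting library after LPS in WT sdCAMs (588 to 1443 CPM against 4974 to 10831), in Ccr2-/- sdCAMs (995 to 1335 against 4288 to 6095) and in tdT- sdCAMs (281 to 801 against 4737 to 4932). They were lower in MG as well (5649 to 10097 against 28620 to 30100 in WT, 11311 to 12963 against 45026 to 46223 in Ccr2-/- and 9519 to 12472 against 31248 to 43621 in reporter mice). As a median share of MG from the same mouse, they stood at 7.23 to 11.3% at rest and 7.28 to 12.0% after LPS in Ccr2-/- sdCAMs. In WT sdCAMs this share was 17.5 to 37.9% and then 12.9 to 17.7%, and in tdT- sdCAMs 7.84 to 14.6% and then 1.97 to 8.19%. The summed sdCAM markers were at 0.4 to 31 CPM in MG against 8823 to 18501 CPM in sdCAMs at rest. After LPS these sdCAM markers were lower in Ccr2-/- sdCAMs (7523 to 8141 CPM against 17507 to 18501), tdT- sdCAMs (6246.5 to 8624 against 13372 to 15914) and tdT+ sdCAMs (933 to 6707 against 9880 to 11195). In WT sdCAMs they ran from 8823 to 16331 CPM at rest and from 12255 to 26157 CPM after LPS, which overlap. The part of the cells behind all these markers in the lysosomal levels was not tested.

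The promoters were read because transcription factors of the TFEB family, which drive many lysosomal genes, bind around the letters CACGTG. Of the 40 genes 35 had an entry in the RefSeq promoter table (build GRCm38.p6), and Ctsb, Ctsh, Galns, Asah1 and Npc1 did not. In the 250 bases before the start, CACGTG, which reads the same on both strands, occurred in 12 of the 35 (34.3%), against 1854 of 27025 genes in the table (6.86%) and 12 of 50 other lysosomal genes (24%). The longer palindrome TCACGTGA, which contains CACGTG, occurred in 3 of 35 (8.57%; Ctsa, Ctsd and Gla) and in 245 of all genes (0.907%). The 12 genes were Ctsa, Ctsd, Ctsf, Ctsl, Lgmn, Glb1, Gla, Gaa, Naglu, Sgsh, Arsa and Lamp1.

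The letters were found in genes that fell and in genes that rose. In Ccr2-/- sdCAMs after LPS, 10 of the 12 genes with CACGTG were lower and 2 higher, with a median log2 difference of -1.10, and 16 of the 23 genes without it were lower and 2 higher, with a median of -1.10. Windows of 60 bases around the letters are shown, with every whole CACGTG in capitals, 5′ to 3′ on the strand of the gene, for 3 genes that fell in Ccr2-/- sdCAMs after LPS (Ctsd, Lgmn and Lamp1) and 2 that rose (Ctsl and Gla). They lie at chr7:142387893-142387952 on the minus strand, chr12:102439109-102439168 on the minus strand, chr8:13159089-13159148 on the plus strand, chr13:64370711-64370770 on the minus strand and chrX:134601167-134601226 on the minus strand.
Ctsd: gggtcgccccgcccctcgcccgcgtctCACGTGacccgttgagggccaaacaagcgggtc
Lgmn: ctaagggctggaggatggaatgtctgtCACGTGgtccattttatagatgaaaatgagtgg
Lamp1: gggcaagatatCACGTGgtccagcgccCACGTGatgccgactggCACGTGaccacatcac
Ctsl: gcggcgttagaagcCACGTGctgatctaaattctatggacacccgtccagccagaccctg
Gla: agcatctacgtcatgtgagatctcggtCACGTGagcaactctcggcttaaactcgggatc

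Counted from its first letter, CACGTG lay 98 bases before the start in Ctsd, 49 in Lgmn, 236 in Ctsl and 194 in Gla. Lamp1 held 4 copies within the 250 bases, of which the window shows 3, and Ctsd and Gla held 2 each, of which 1 is shown. A match is only a run of letters, and binding was not measured in these libraries.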

How the data were processed

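Per the labels and the study's methods, the authors extracted RNA from sorted cells, amplified cDNA by PCR from a very low input without molecular identifiers, sequenced single reads, aligned them with STAR 2.7.11a and deposited counts per gene symbol, which are whole numbers, from featureCounts (2.0.8). The strand setting is not given in the sources used here, and whether the build was mm10 or GRCm39 could not be settled. The authors used DESeq2 1.46.0 and marked 6 WT sdCAM libraries with a correction for immediate early genes, and whether it changed the deposited counts is not given in the sources used here. The methods also name a ComBat-seq batch correction of the WT and Ccr2-/- data, but the labels give these libraries 1 batch number, so no batch term was fitted and a batch between the genotypes cannot be told apart from genotype. The titles of 12 Ccr2-/- LPS libraries name the other cell type, and the characteristic and the library name were followed.

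All 40 genes passed the filter on low counts (filterByExpr) in every fit. Counts were scaled by trimmed means of M values (TMM) and tested with edgeR 4.0.16 in R 4.3.3 (limma 3.58.1), 1 fit per cell type and genotype or per genotype, with p adjusted over all genes tested. DESeq2 1.42.0, other scalings, no filter, a log2 limit of 1, fits of the compared libraries alone, the mouse as a block, the mark as a covariate, exchanged or omitted columns and leaving out each replicate were the alternatives, of which library totals were added after seeing the data. PCR duplicates were not removed by molecular identifiers. The p-values rest on the spread between libraries within groups, pooled over the groups of a fit and moderated across genes. Fits across cell types held more than 1 library per mouse, with no mouse block in the main fit. Same-mouse libraries come from 1 animal, per the labels, and over 36 such pairs their deviations from the group means correlated with r between -0.05 and 0.21. Between 1705930 and 11330781 counts per library were deposited.

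On simulated counts the test recovered 0% of 100 genes changed by log2 1 and 0% of 100 changed by log2 2 for LPS in WT sdCAMs (10504 genes), and 35% and 78% for LPS in WT MG (11789 genes). For the interaction of LPS and cell type in Ccr2-/- mice it recovered 2% and 43% (12890 genes). The members and lists were chosen with earlier results of these data known. Any of the 40 could be named. In each comparison the statistics are given for at most 4 higher and 4 lower genes with the smallest p among those that passed with a mean of at least 10 CPM in 1 group. Levels in every library were set for a panel of 16, and those of other members were added after their values were seen. Of other lysosomal genes at most 2 higher and 2 lower are named by the same order, and 1 of these genes is not reported here. Exon lengths are from GENCODE M21 and promoters from RefSeq.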

Additional observations from a re-analysis of the deposited data

Results flagged for a closer look

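The LPS response was compared between sdCAMs and MG of the same mice by the interaction test (edgeR, adjusted over all genes tested). Of the 40 genes 16 passed in Ccr2-/- mice and 7 in tdT- sdCAMs, and not all of them are listed here. The 13 results below, on 8 genes, are those with the smallest p in each comparison and direction. Each value is the log2 difference between LPS and rest in sdCAMs minus that in MG.

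In Ccr2-/- mice the values were -3.38 ± 0.24 (SE) for Ctsc (adjusted p = 6.8e-08), -2.94 ± 0.30 for Galc (adjusted p = 3e-06), -1.57 ± 0.18 for Hexa (adjusted p = 1e-05), -1.13 ± 0.16 for Asah1 (adjusted p = 8.66e-05) and 1.07 ± 0.19 for Ctsz (adjusted p = 0.000926). For Ctsc and Galc all 3 MG libraries after LPS lay above all 3 at rest, and all 3 sdCAM libraries after LPS lay below all 3 at rest. MG markers in these sdCAM libraries stood at 7.23 to 12.0% of MG of the same mouse.

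In WT mice they were -2.65 ± 0.49 for Ctsc (adjusted p = 0.0118), -1.90 ± 0.41 for Lipa (adjusted p = 0.0293) and -2.03 ± 0.47 for Galc (adjusted p = 0.0401). None of these 3 passed with the mouse as a block.

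In reporter mice the value for tdT+ sdCAMs was -3.35 ± 0.68 for Ctsc (adjusted p = 0.0171), which did not pass with the conflicting columns exchanged or left out. For tdT- sdCAMs they were -4.74 ± 0.69 for Ctsc (adjusted p = 0.000817), -2.54 ± 0.51 for Glb1 (adjusted p = 0.00595), -2.83 ± 0.60 for Asah1 (adjusted p = 0.00912) and -2.27 ± 0.49 for Ctsb (adjusted p = 0.00921). With the columns exchanged 1 gene passed for tdT- sdCAMs.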

How the results depend on the processing

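No gene among the 40 that passed in a comparison turned its direction under any alternative run (0 of 3141 values), and 500 of them no longer passed. The counts below are genes passing of 40 and the cause of each shift was not tested.

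DESeq2 gave 14 in place of 7 for LPS in WT sdCAMs, 12 in place of 1 in reporter MG, 14 in place of 7 for WT sdCAMs against MG at rest, 11 in place of 5 for tdT- sdCAMs against MG, 7, 3 and 12 in place of 3, 1 and 7 for the interactions in WT, tdT+ and tdT-, 1 in place of 0 for BLZ945 in WT MG and 13 in place of 7 for tdT+ against tdT- after LPS. Without scaling factors these were 25 for LPS in WT sdCAMs, 3 for WT at rest, 19 and 23 for the WT and tdT- interactions, 1 for BLZ945 in WT sdCAMs and 31 for tdT+ against tdT- after LPS. Without a filter they were 4 for LPS in reporter MG, 1 for BLZ945 in WT MG and 11 for tdT+ against tdT- after LPS. A log2 difference over 1 left 13 of 26 in WT MG, 10 of 31 in Ccr2-/- MG and 7 of 27 at rest in Ccr2-/- mice. The mark as a covariate gave 11 for LPS in WT sdCAMs. Fits of the compared libraries alone gave 1 for tdT+ against tdT- after PBS and 0 after LPS. Exchanged columns gave 0, 1 and 0 for the tdT+ and tdT- interactions and tdT+ against tdT- after LPS, and left-out columns gave 0 and 3 for the first and last.

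With the mouse as a block, which pairs the cell types of 1 animal, the count was 4 for WT at rest and 0 for the WT interaction, 12 in place of 16 for the Ccr2-/- interaction, and 10 for tdT+ against tdT- after LPS, and moved no other count over 1.5 times. Leaving out 1 library gave 0 to 3 for LPS in WT sdCAMs, 22 to 30 in WT MG, 30 to 32 in Ccr2-/- sdCAMs, 23 to 27 in Ccr2-/- MG, 16 to 25 in tdT+, 28 to 29 in tdT- and 0 to 3 in reporter MG. It gave 3 to 9, 20 to 23, 4 to 6 and 1 to 7 at rest in WT, Ccr2-/-, tdT+ and tdT-, 0 to 3, 11 to 14, 0 to 1 and 4 to 11 for the interactions in the same order, 0 to 1 for BLZ945 in WT sdCAMs and 5 to 10 for tdT+ against tdT- after LPS.

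With 3 mice a group, a gene that did not pass in WT sdCAMs is not shown to be unchanged. Low genes such as Gla and Sgsh rest on few counts.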
